A study of Drosophila melanogaster with 3 samples.

Results

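The NK homeobox cluster of Drosophila melanogaster is a run of 6 related homeobox genes on chromosome arm 3R, here taken as tin, bap, lbl, lbe, C15 and slou. The 6 genes were chosen by name, out of 13945 protein-coding genes on the chromosome arms, and the naming rule uses no measured value. Binding of the slou protein to this cluster, its own gene included, was measured by ChIP-seq, which sequences the DNA recovered with an antibody from sheared chromatin. The antibody was raised against GFP, and the embryos were of a stable transgenic line that makes slou with GFP at its C-terminal end. The 3 samples are biological replicates of 1 group: whole embryos of both sexes, 0 to 24 h old, with chromatin sonicated to 200 to 800 bp. All 3 carry the transgene and no control library was analysed here, so nothing below compares 2 conditions. One label describes the insertion as aimed at slou. No source used here gives the promoter that drives the fusion, the stretch of slou DNA that it carries or its site in the genome, so the copy number of the slou locus in these embryos is not known. Whole embryos mix cells with and without slou. Fewer cells of a type and less binding per cell therefore cannot be told apart, and no marker of a cell type was measured.

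The NK genes encode DNA-binding proteins with a homeodomain, and in Drosophila most of them act in the mesoderm. Tinman (tin) is required for the heart and the dorsal mesoderm, bagpipe (bap) for the visceral mesoderm of the gut, and the ladybird pair (lbe and lbl) for the identity of particular heart and body wall muscle cells. C15, also called clawless, acts in the distal leg. Slouch (slou) gives single body wall muscles their identity and is also used in the nervous system. Proteins of this family bind short AT-rich words such as TAATTA, or the words CAAGTG or TAAGTG known from tin.

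Within the cluster, 1 of the 6 genes, tin, had a peak on the authors' optimal list, which holds the 2743 peaks that passed their reproducibility threshold. Over all protein-coding genes the share with such a peak was 19.7%, counting summits in the gene body or the 1 kb before its start. The slou gene had none. The highest peaks of the cluster lay outside the 6 genes, upstream of sp3, in the neighbour mod(mdg4) and upstream of Fancm. In the pooled list the densest run of weak peaks lay in the 10 kb upstream of slou, toward the neighbouring gene CG15498. The best peak there ranked just below the optimal list, and its nearest start site was that of CG15498.

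The sequence under these peaks is shown for 5 stretches, all given 5′ to 3′ on the plus strand of the RefSeq Release 6 genome. The first is the stretch from 50 bp before the summit of the tin peak to the base before the tin start, 3R:21378688-21378976. The others reach 50 bp to each side of a summit: the 2 intergenic optimal peaks (3R:21482004-21482104 before Fancm and 3R:21520330-21520430 before sp3), the best peak inside slou (3R:21551941-21552041, in an intron) and the best peak upstream of slou (3R:21563476-21563576). Capitals mark, on either strand, the homeodomain words TAATTA and also TAATTG, the tin words CAAGTG or else TAAGTG, and the AT-rich word TTAAAA.
tin upstream peak: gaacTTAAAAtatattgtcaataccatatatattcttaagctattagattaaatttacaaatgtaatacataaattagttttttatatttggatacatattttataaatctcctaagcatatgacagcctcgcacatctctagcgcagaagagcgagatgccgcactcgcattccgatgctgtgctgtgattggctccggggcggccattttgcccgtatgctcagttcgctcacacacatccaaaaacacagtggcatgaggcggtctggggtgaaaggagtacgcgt
Fancm upstream peak: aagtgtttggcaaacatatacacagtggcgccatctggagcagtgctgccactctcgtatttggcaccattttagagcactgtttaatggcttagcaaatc
sp3 upstream peak: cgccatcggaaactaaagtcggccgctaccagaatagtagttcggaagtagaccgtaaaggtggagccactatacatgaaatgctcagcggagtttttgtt
slou intron peak: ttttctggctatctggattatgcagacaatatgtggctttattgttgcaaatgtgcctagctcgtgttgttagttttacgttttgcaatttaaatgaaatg
slou upstream peak: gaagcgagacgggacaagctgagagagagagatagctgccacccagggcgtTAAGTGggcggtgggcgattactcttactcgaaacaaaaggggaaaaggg

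The tin summit has TTAAAA starting 46 bp before it, and the slou upstream summit has TAAGTG starting 1 bp after it. The replicate summits of the slou upstream peak lay -7, 148 and 143 bp from the pooled one, so not all fall in its printed stretch. No one of the 5 words lies in the other 3 stretches. A match is a description of the letters and not a site, and a stretch with no match says only that these letters are not in that window.

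The tin gene (FBgn0004110, 3R:21378977-21381970, plus strand) held 1 optimal peak, at 3R:21378543-21378932. Its summit lay 239 bp before the tin start. The authors' score of the peak was 117 and its −log10 q 2.72, and it ranked 1832 of the 30000 peaks of the list called on the 3 replicates pooled. In replicates 1, 2 and 3 the same peak ranked 1124, 2266 and 3349 of 30000, a mean of 2246 ± 1113 (SD, n = 3). Its scores in those lists were 51.0, 35.5 and 28.9, each on the scale of its own list. It thus stood among the 2743 highest peaks of replicates 1 and 2 and below them in replicate 3. No other summit lay in the tin window in any of the 4 lists, and the summits of the 3 replicates lay 25, -36 and 81 bp from the pooled one.

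The bap gene (FBgn0004862, 3R:21388880-21390449, plus strand), which in the embryo acts after tin in the visceral mesoderm, had no summit in its window of 2.57 kb in the pooled list or in any replicate. These lists hold only peaks, so the signal over bap itself is not known.

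The ladybird genes are neighbours with similar products, and how reads that map to both were treated is not stated in any source used here. The lbl gene (FBgn0008651, 3R:21409979-21434133, minus strand) is the longest of the 6 and held 3 pooled-list summits and no optimal one. The best of the 3, at 21426769 in the 3′ UTR of a shorter lbl transcript, had a score of 37.5 and ranked 15845. The replicates placed 4, 4 and 1 summits in the lbl window, and the best of each ranked 4714, 11855 and 9746. The summit at 21426769 was the best of lbl in replicate 1, while replicates 2 and 3 had theirs at 21429663 and 21421277. The best lbl peaks were thus at 3 different places in the 3 replicates. The lbe gene (FBgn0011278, 3R:21441577-21446537, minus strand) held no pooled-list summit. Replicates 1 and 2 had none there either, and replicate 3 had 3, the best at rank 15472 and at -431 bp, upstream of the lbe start.

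C15 (FBgn0004863, 3R:21499986-21512814, plus strand) also held no pooled-list summit in its 13.8 kb window. Replicate 1 had 1 summit at -331 bp from the C15 start at rank 8805, and replicate 3 had 1 at -298 bp at rank 26828. Replicate 2 had none. Both summits lay upstream, and the body of C15 held no summit in any list.

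The slou gene (FBgn0002941, 3R:21548661-21557182, minus strand) held 4 pooled-list summits and no optimal one. Besides slou, tin and lbl were the only members with a pooled-list summit. The slou summits lay in introns at ranks 15376 and 15877, 563 bp before the start at rank 21842, and in the 5′ UTR at rank 26321. The one in the 5′ UTR overlapped no peak of any replicate. The replicates had 2, 3 and 4 summits in the slou window, and their best ranked 3331, 8183 and 10673. The best summit of replicates 1 and 2 lay in the same part of the gene, at 21551516 and 21551836, and that of replicate 3 at 21554945. The scores of these peaks were 31.0, 18.3 and 17.2. None of them was among the 2743 highest of its list.

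**Figure D1:**
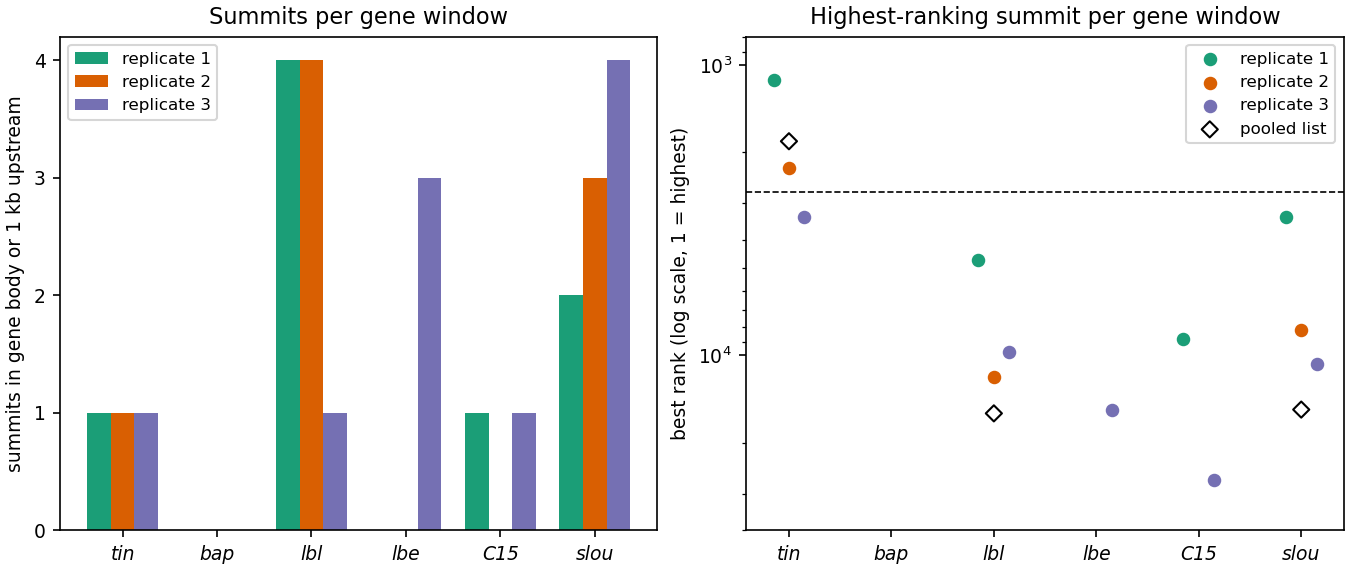
Left, number of summits in the body or 1 kb upstream of each of the 6 genes in each replicate. Right, rank of the highest of them on a log scale with high ranks at the top, with the pooled list as diamonds and the dashed line at rank 2743, the length of the optimal list. Ranks of 1124 and 2266 put tin above the line in replicates 1 and 2, and no point of another gene is above it.

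Set in order by the mean of the best rank over the replicates, tin (2246 ± 1113) came before slou (7396 ± 3734) and lbl (8772 ± 3669; SD, n = 3 for each). For slou and lbl these means join summits at different places. The windows of tin, slou and lbl were 3.99, 9.52 and 25.2 kb, and a longer window can hold more peaks to pick the best from. C15, lbe and bap had no summit in at least 1 replicate, so no mean was formed. Within each replicate tin ranked above slou. Taken over all 3, the lowest rank of tin, 3349, and the highest of slou, 3331, crossed by a few places. The ranks of slou and lbl overlapped over most of their range.

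In all, the 6 windows span 61.0 kb and held 8 pooled-list summits, 0.131 per kb, against 0.254 per kb over the windows of all protein-coding genes. The replicates had 8, 8 and 10 summits there (8.67 ± 1.15, SD, n = 3). The 2743 highest peaks of replicates 1, 2 and 3 put a summit in 1, 1 and 0 of the 6 windows, each time in tin, while 19.1%, 19.9% and 19.4% of all genes had one. A pooled-list summit lay in 3 of the 6 windows and in 63.3% of all genes, although the median window of the 6 was longer (7.74 kb against 3.17 kb). Among genes with windows no shorter and no longer than those of the 6, 23.2% had an optimal summit.

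The cluster was then examined from end to end, from the first base of tin to the last of slou with 20 kb on each side (3R:21358977-21577182, 218 kb). The region held 4 optimal summits, 18.3 per Mb, against 18.1 per Mb on the rest of 3R. Apart from the tin peak they lay at genes of other families. The highest, at 3R:21520236-21520502 with a score of 590, ranked 44 in the pooled list and 62, 36 and 42 in the replicates. It lay between C15 and slou and 548 bp before the start of sp3, a gene on the plus strand. This was the steadiest peak of the region, with summits of the replicates 9, -2 and 5 bp from the pooled one.

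The next, at 3R:21365446-21365573 with a score of 358, ranked 162 and lay in an intron of mod(mdg4), which encodes a BTB-domain chromatin protein and borders the cluster before tin. Its summit was 15 bp inside the 5′ end of pre-mod(mdg4)-E, one of the separately annotated pieces from which mod(mdg4) mRNAs are trans-spliced. It ranked 295, 100 and 235 in the replicates. Following it by rank and ahead of the tin peak, the peak at 3R:21481859-21482248 had a score of 147. That peak ranked 1171 overall and 1619, 1209 and 1415 in the replicates. It lay between lbe and C15 and 271 bp before Fancm, a DNA helicase gene of the Fanconi anaemia pathway. All 4 optimal peaks lay within 1 kb of a start site, as did 64.7% of optimal peaks on all arms. For the mod(mdg4) peak that start site was the 5′ end of pre-mod(mdg4)-E. Of the 4, 3 were matched among the top 2743 peaks of every replicate (75%), tin being the exception in replicate 3, and on the rest of 3R the share was 58.1%.

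**Figure D2:**
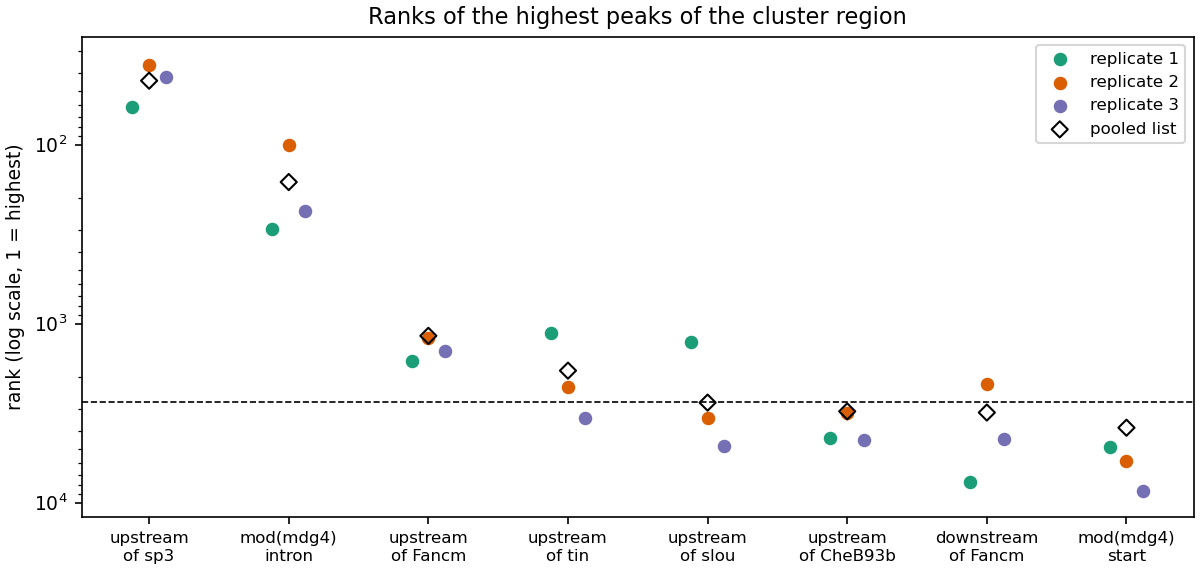
Rank, on a log scale with high ranks at the top, of the 8 highest pooled-list peaks of the region in each replicate and in the pooled list (diamonds). The dashed line marks rank 2743. The peaks before sp3 and Fancm and in mod(mdg4) lie above the line in all 3 replicates, and the tin peak in replicates 1 and 2. The slou upstream peak is above it in replicate 1 at rank 1269, and the peak beyond Fancm in replicate 2 at rank 2162.

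A few peaks lay just below the optimal list, whose lowest score was 92.0. The slou upstream peak (3R:21563331-21563720) had a score of 91.6 and ranked 2764. It lay between slou and CG15498, and its nearest start site was that of CG15498, 5623 bp from its summit. In replicates 1, 2 and 3 it ranked 1269, 3375 and 4847, so it was high in replicate 1 and below the top 2743 in the others. The summits of these replicate peaks lay -7, 148 and 143 bp from the pooled one. The same replicate peaks also overlapped the neighbouring pooled-list peak, which has its summit at 21563825 and rank 8998. A peak in the stretch between bap and lbl ranked 3094, 550 bp before CheB93b, a gene of a chemosensory protein family, and ranked 4348, 3155 and 4497 in the replicates. Beyond the 3′ end of Fancm a peak at rank 3140 ranked 7722, 2162 and 4399. One at the mod(mdg4) start, 23 bp before it and facing tin, ranked 3817, with replicate ranks of 4900, 5862 and 8632. Each of these was found in all 3 replicates, and 1 of them in replicate 1 and 1 in replicate 2 reached the top 2743.

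With weak peaks counted as well, the region with its flanks was denser than the rest of the arm. It held 59 pooled-list summits, 270 per Mb, against 185 per Mb on the rest of 3R. The replicates had 58, 50 and 65 summits there, or 264 ± 34.4 per Mb (SD, n = 3) against 193 ± 7.80 per Mb on the rest of the arm. In each of the 3 the region was the denser. Of the 59 peaks 4 were on the optimal list, against 9.81% of pooled-list peaks on the rest of 3R and 9.14% on all arms. When 3R was divided into 147 stretches of the same length, the median stretch held 41 pooled-list summits (range 0 to 92), and 116 held fewer than the cluster. For optimal summits the median was 3, and 75 stretches held fewer than 4. These densities rest in part on the 20 kb flanks. From tin to slou alone there were 2 optimal summits, 11.2 per Mb, and 37 pooled-list summits, 208 per Mb. The replicates had 208, 219 and 236 per Mb there, against 191, 201 and 186 on the rest of 3R. Without its flanks the cluster thus held fewer optimal summits per Mb than the rest of the arm, and its excess of weaker peaks was smaller.

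Within the region the weak peaks lay mostly between the genes. Intergenic sequence made up 110.8 kb of the region and held 40 of the 59 summits, 0.361 per kb, with 35, 35 and 40 in the replicates. The bodies of the 6 members covered 55.0 kb and held 6, 0.109 per kb, and the replicates had 5.67 ± 0.577 there. The 1 kb stretches before the 6 starts held 2 summits in 6 kb, 0.333 per kb, with 3, 2 and 4 in the replicates. Per kb the replicates had 0.5 ± 0.167 there and 0.331 ± 0.0261 in intergenic sequence (SD, n = 3). The density before the starts rests on these few summits. The 46.4 kb of other genes held 11, 0.237 per kb, and the replicates had 12.3 ± 4.62. Densities of intergenic sequence and gene bodies on the rest of the arm are not given here. Whether this split is particular to the cluster was therefore not tested. Of the 59 summits, 17 lay within 1 kb of a start site (28.8%), against 33.1% of all pooled-list summits. The starts of the pre-mod(mdg4) models inside mod(mdg4) were counted as start sites, and some of the 17 lay near no other.

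**Figure D3:**
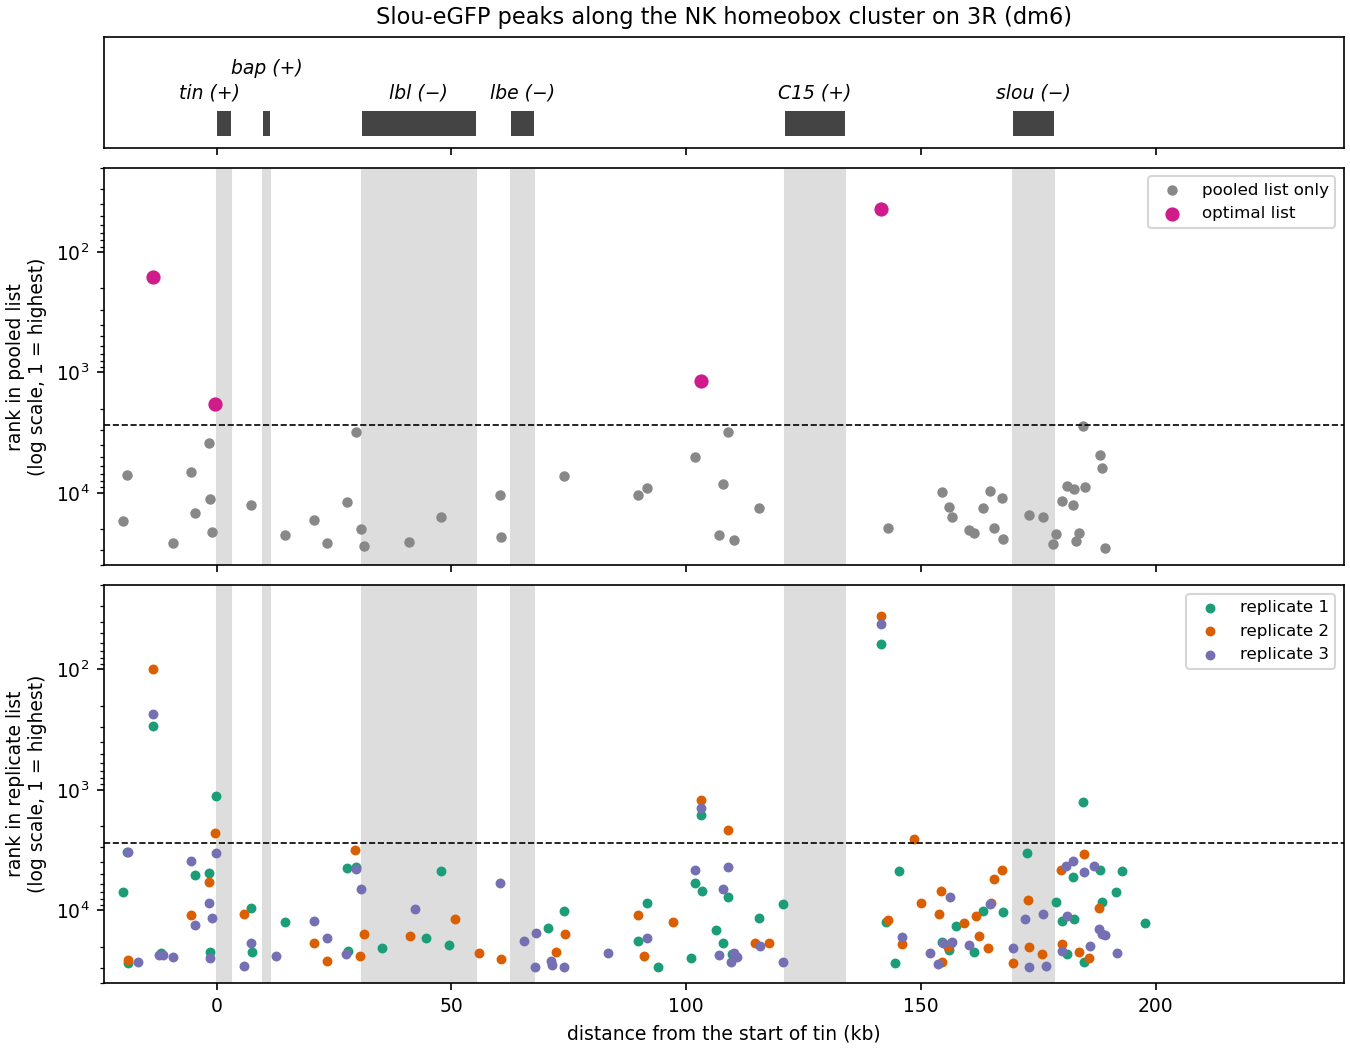
Rank of every summit of the region against its distance from the start of tin in kb, for the pooled list (middle) and the 3 replicates (bottom), on log scales with high ranks at the top. Grey bands are the bodies of the 6 genes with their strand, and the dashed line is rank 2743. Of the 59 pooled-list summits 4 stand above the line, none of them inside the body of a cluster gene.

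Between neighbouring members the density varied. The stretch between tin and bap held 1 pooled-list summit in 6.91 kb, at rank 12497, and the one between lbl and lbe held 2 in 7.44 kb, the best at rank 10400. Between bap and lbl there were 6 in 19.5 kb. The longest stretch, the 53.4 kb between lbe and C15, held 10 (0.187 per kb), and the 35.8 kb between C15 and slou held 12 (0.335 per kb). In the last of these the sp3 peak at rank 44 stood alone, since the next ranked 9650. In the pooled list the flanks were the densest, with 10 summits in the 20 kb before tin (0.5 per kb) and 12 in the 20 kb beyond the slou start (0.6 per kb). The replicates had 9, 5 and 12 before tin and 12, 6 and 11 beyond slou, so replicate 2 was the lowest in both. In replicate 2 the order was another: the stretch between C15 and slou had 17 summits, 0.474 per kb, against 0.25 per kb before tin and 0.3 per kb beyond slou.

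Long gaps stood between some peaks. No pooled-list summit lay in the 25892 bp from 21494488 to 21520380, which hold the whole of C15. The median gap was 1582.5 bp in the region and 2456 bp on the arm. This gap was picked as the longest of the region, and the share of gaps on the arm that are as long is not given here. Each replicate list had a summit inside it, such as those at 21499655, 21496535 and 21499688 in the order of replicates. No optimal summit lay in the 103 kb from the tin peak to the Fancm peak, which hold bap, lbl and lbe. Of 581 gaps between optimal summits of 3R, 83 (14.3%) were longer, and the median was 20.5 kb.

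The densest 10 kb bin of the region in the pooled list lay upstream of slou, a stretch chosen for description after its values were seen. Counted from the start of tin it is the bin at 180 to 190 kb, which is 1.80 to 11.8 kb upstream of the slou start. The bin reaches into CG15498, which holds its summit at 21568114, and part of its summits lay nearer the CG15498 start than the slou start. It held 11 pooled-list summits, and 8, 5 and 9 in replicates 1, 2 and 3. It was the fullest bin in replicate 3, tied at 8 with the bin of Fancm at 100 to 110 kb in replicate 1, and was passed in replicate 2 by the bins at 160 to 170 kb, with 7, and at 150 to 160 kb, with 6. The 3207 tiles of 10 kb on 3R held 1.86 ± 1.91 pooled-list summits on average (SD over tiles), the fullest of them 11, and 2 tiles (0.0624%) reached that number. The share of tiles with at least as many as the slou bin was 2.12%, 7.42% and 0.187% in replicates 1, 2 and 3. Bins placed on the cluster and tiles placed on the arm do not share borders, and the tile over this place, 3R:21560001-21570000, held 9. Of the 22 bins 4 held no pooled-list summit (18.2%, against 31.7% of tiles on the arm), and 1 bin, over the 3′ part of C15 and the sequence after it, held none in any replicate.

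**Figure D4:**
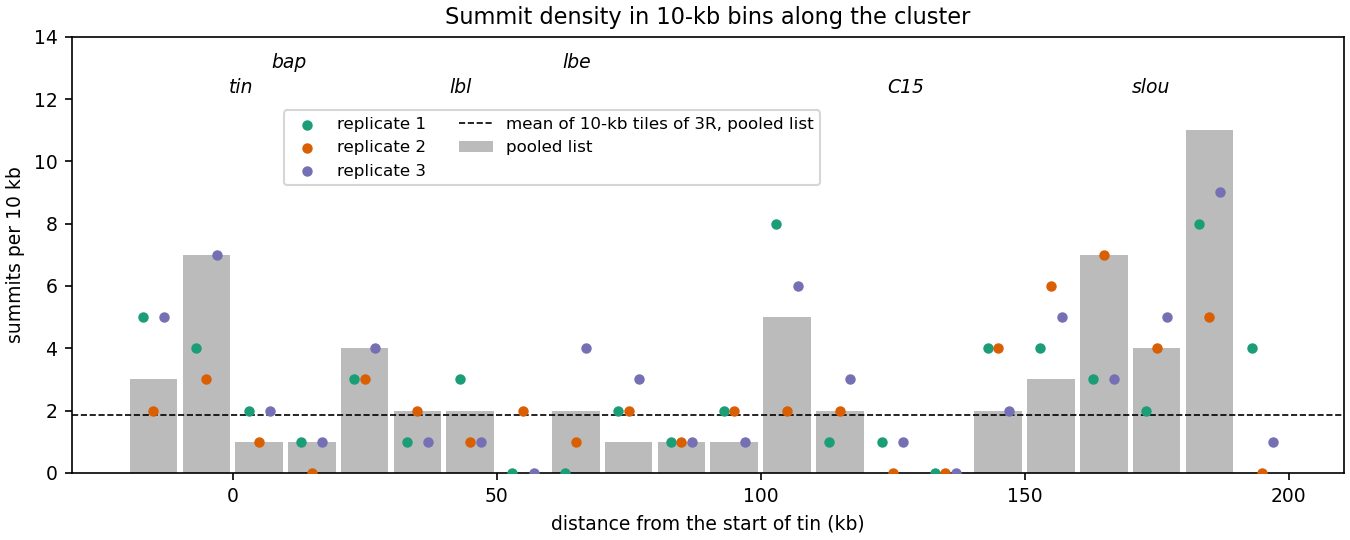
Summits in bins of 10 kb along the region, as bars for the pooled list and points for the 3 replicates, against the distance from the start of tin in kb. The dashed line is the mean of 1.86 summits over the 10 kb tiles of 3R, and gene names stand over the middle of each gene. The bin upstream of slou reaches 11, and all 3 replicates are above the line there.

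Measured gene by gene as the 10 kb before the start, slou had 10 pooled-list summits and tin 7, while lbl had 2 and bap, lbe and C15 1 each. The mean of all protein-coding genes was 2.86. As many as slou had were found before 0.351% of genes. In the replicates slou had 8, 6 and 8 (7.33 ± 1.15, SD, n = 3), and 4.37%, 5.62% and 2.35% of genes had as many. For tin the replicates had 4, 3 and 7, and as many were found before 39.0%, 47.3% and 5.32% of genes. The stretch before slou was thus among the fuller ones in every replicate and that before tin in replicate 3. None of the 10 slou summits was on the optimal list. Whether the transgene carries a copy of this stretch is not known, and the part of such a copy in these counts was not tested. The stretch before tin takes in the mod(mdg4) start, and CG15498 and then InR, the insulin receptor gene, follow beyond the slou upstream stretch.

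Most of the pooled-list summits of the region were not shared by all replicates. Of the 59, 16 were overlapped by a peak in all 3 replicate lists (27.1%, against 31.7% on the rest of 3R), 26 in 2, 15 in 1 and 2 in none. The 4 optimal peaks are among the 16. Neighbouring pooled-list peaks could be matched by the same replicate peak, and each was counted. The pooled list was called on the same reads, so some overlap is built in.

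The 5 words were counted within 50 bp of each summit, on both strands. TAATTA is its own reverse complement, TAATTG differs from it in the last letter, and TAAGTG and CAAGTG differ from each other in the first. Copies of different words may overlap by a few letters, and each was counted. TAATTA lay at 0 of the 59 pooled-list summits of the region, which allows a share of up to 5.08% for counting error only. It lay at 8.11% of all pooled-list summits, 10.8% of all optimal ones and 6.55% of windows of 101 bp tiled over 3R. Among replicate summits it lay at 2 of 58, 0 of 50 and 5 of 65, a share of 3.71% ± 3.85 (SD, n = 3). The word was near some summits of replicates 1 and 3, so its absence was a feature of the pooled list and of replicate 2. Shares over all summits of the replicate lists are not given here. Whether the replicate shares of the region are low for their own lists was therefore not tested.

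The word itself was frequent in the cluster. The 6 windows hold 74 copies, 1.21 per kb, against 0.736 per kb on 3R as a whole, with 31 in lbl, 18 in C15, 16 in slou, 6 in lbe, 3 in tin and 0 in bap. None of the 74 lay within 50 bp of a pooled-list summit, and stretches that close to a summit make up 1.32% of the 6 windows. The whole region has 229 copies (1.05 per kb). The nearest copy was 845 bp from the tin summit, 113 bp from the sp3 summit, 147 bp from the Fancm summit, 112 bp from the mod(mdg4) summit and 2410 bp from the slou upstream summit. Counted over the whole peak interval, 32.2% of the 59 peaks held TAATTA, against 27.2% of all pooled-list peaks, and the replicates gave 36.7% ± 4.22.

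The other words were less far apart. TAATTG lay at 5 of the 59 summits (8.47%, against 10.8% of all pooled-list summits), CAAGTG also at 5 (against 6.52%) and TAAGTG at 4 (6.78%, against 5.44%). Over all optimal summits the shares were 11.3%, 5.03% and 5.8%. Their shares in 3R tiles were 9.53%, 6.48% and 4.97%. TTAAAA lay at 16 summits (27.1%, against 22% of all pooled-list and 35% of all optimal summits, and 15.8% of tiles), and at 2 of the 4 optimal ones, tin and mod(mdg4). The tin summit lies in AT-rich sequence, as the stretch printed above shows: 83.2% of the bases within 50 bp were A or T. The mean over all optimal summits was 66.7%. Over the 59 summits it was 59.2% ± 9.57 (SD over summits), against 61.1% over all pooled-list summits and 57.4% over 3R tiles. The sp3 and Fancm summits were at 52.5% and 54.5%, and the slou upstream summit at 44.6%.

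Homeobox genes of the same class elsewhere in the genome were listed for comparison (B-H1, B-H2, bsh, CG15696, Dll, Dr, E5, ems, H2.0, HGTX, Hhex, Hmx, lms, NK7.1, scro and vnd). Of these 16, 1 had an optimal summit (6.25%, against 19.7% of all genes) and 10 a pooled-list one (against 63.3% of all genes). It was NK7.1, with 3 optimal and 21 pooled-list summits in a window of 44.5 kb. Its best peak ranked 325, lay 438 bp from the NK7.1 start on the upstream side and ranked 333, 386 and 282 in the replicates. The best pooled-list rank had a median of 11416 over the 10, of 15376 over the 3 cluster genes with a peak, and of 5796.5 over all genes with one.

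Genes of the heart and visceral mesoderm, the tissues of tin and bap, formed the second list (pnr, Doc1, Doc2, Doc3, tup, mid, H15, Hand, Mef2, eve, htl, dpp, bin, svp, zfh1, twi, Alk, jeb and Fas3). Of these 19, 5 had an optimal summit (26.3%, against 19.7%) and 15 a pooled-list one (against 63.3% of all genes). Their median window was 15.7 kb, longer than the 3.17 kb of all genes. The zinc-finger and homeobox gene zfh1 had its best peak at rank 650 and the myogenic factor gene Mef2 at rank 1026. The BMP ligand gene dpp followed at rank 1519, and jeb, the ligand of the Alk receptor in the visceral mesoderm, at rank 2104. Last came Fas3, an adhesion protein gene of the visceral mesoderm, at rank 2271, whose peak ranked 9171, 1509 and 2553 in the replicates. Ranks of the other 4 lay between 517 and 2874 in every replicate. The tin peak, at rank 1832, fell between those of dpp and jeb.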

How the data were processed

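ChIP-seq peak lists of 3 biological replicates were used, named by the replicate numbers in the labels. The authors called peaks in each replicate and on all 3 together, per the README files, each time with a control alignment that was not analysed here, and an optimal list passed a reproducibility threshold (IDR). Which aligner and caller were run, and in what version, is not given in the sources used here. Each deposited score is the authors' own value per peak on a scale that no source states, so it was used for ranks and descriptions inside one list. The −log10 q printed is likewise deposited by the authors. The 2743 optimal peaks were the 2743 highest of the pooled list, and the pooled and replicate lists hold 30000 peaks each, background included. No read counts are in the lists, so depth is unknown.

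Summits were placed on Ensembl release 115 gene models and RefSeq Release 6 sequence (dm6, 1-based). The dm3 lists were not analysed here. A summit counted for a gene when in its body or 1 kb upstream. Summits were matched between lists by 1 bp of peak overlap. No test was run, since there is 1 group. Shares over all genes, all summits and 3R stand beside many counts. They do not stand beside those of intergenic sequence and gene bodies in the region, or beside word counts at replicate summits. Neighbouring peaks, and genes that share sequence such as the pre-mod(mdg4) models, are not independent. Named genes are the 6 members, genes at or nearest to an optimal peak of the region, genes next to the cluster, and up to 6 genes with an optimal summit of each list. The peaks described are the optimal ones and the best of each gene and stretch. The peaks just below the optimal list, with the genes beside them, were chosen after the values were seen. So were the replicate 2 peak inside sp3 and the 10 kb upstream of each gene. The members, lists and words were chosen with earlier results of these data known. Python 3.11.15, pandas 2.3.3, numpy 2.4.6 and matplotlib 3.10.9 were used, and the counting functions were tested on simulated data. Alternatives changed the flanks, the upstream stretch, list length, matching rule and word window, and left out each replicate in turn.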

Additional observations from a re-analysis of the deposited data

How the results depend on the processing

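Of 51 alternatives run over 12 results, 33 stayed near the reported value and 18 moved. Near means within 1.5 times for a count, 1 SD of the replicates for a replicate mean or a rank, and the 95% Wilson interval for a share. Without the flanks the cluster held 2 optimal summits in place of 4 and 37 pooled-list summits in place of 59, and with 50 kb flanks it held 95 pooled-list summits. Among peaks ranked up to 5486 it held 10 pooled-list summits and a mean of 13 replicate summits in place of 57.7. Without the upstream stretch no cluster gene had an optimal summit (0 in place of 1) and the best rank was 15376 in place of 1832. Requiring a match in the top 2743 of both other replicates left 0 to 1 gene, since tin has no such match in replicate 3. The 6 windows held 18 pooled-list summits with 5 kb upstream in place of 8, and the 10 kb upstream alone, an alternative chosen after seeing the data, held 22. The share of optimal peaks matched in all 3 replicates was 75%, fell to 50% when overlap had to be 50% of both peaks, and was 100% both with replicate peaks up to rank 5486 and with whole lists, and 75 to 100% with each replicate left out. TAATTA lay at 0% of summits within 50 bp, 8.47% within 100 bp and in 32.2% of whole peaks. Over all pooled-list peaks these shares were 8.11%, 15.6% and 27.2%. Up to rank 5486, 2 other NK genes and 9 heart or visceral mesoderm genes had a peak, in place of 1 and 5. No share of all genes up to that rank is given here, so these counts cannot be set against one. The dm3 alternative was not run, since no annotation of that build was used here. No paired analysis was possible because the samples form 1 group. With no read counts, depth, and so the reason for a missing peak at bap or C15, cannot be judged, and 3 replicates limit each SD.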
